A study of Mus musculus with 6 samples.

Results

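Phlda3 and 9 other genes that p53 is known to switch on were described in cultured mouse chondrocytes with and without periostin. They make up 10 of the 41388 genes counted. Phlda3 was picked because it was higher in the cells without periostin, so it was selected on its level in these same samples and its values are given as a description with no test. The other members, Cdkn1a, Mdm2, Ccng1, Trp53inp1, Bax, Sesn2, Gdf15, Eda2r and Zmat3, were listed as well-known p53 targets, to see whether the output of p53 was higher as a whole. They too were chosen with earlier results of these data known, so their shared direction is not an independent test of that question. All 10 were above 1 CPM (counts scaled to library size) in every sample and passed the filter on low counts.

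RNA-seq was done on primary chondrocytes of the femoral head cartilage of male mice aged 21 days, kept in culture for 2 days. There were 3 samples of Postn-/- mice, homozygous for a germline null allele of periostin (tm1Jmol), and 3 of wild-type (wt) mice, all on the mixed B6/129 background and without treatment. The study's methods give 3 mice per genotype, and the labels name no animal, so p-values measure the spread between these samples. Total counts ran from 20587640 to 26572260 per sample. Levels below are CPM after TMM normalization, which corrects for library size and composition, and folds are Postn-/- over wt.

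p53 is a transcription factor that is held low by the ubiquitin ligase Mdm2 and is stabilised by DNA damage, oxidative stress and inappropriate growth signals. It binds pairs of a short DNA element near its target genes and raises the transcription of cell cycle inhibitors, killers of the cell, repair enzymes and its own inhibitors, so that the response is limited by feedback. In cartilage, p53 and its target p21 are studied mainly for chondrocyte senescence and death in ageing and osteoarthritis.

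Where the p53 element lies near these genes is shown first, because direct p53 targets are defined by such binding. RefSeq windows of 250 bases before to 50 after the gene start (GRCm38.p6) were found for 8 of the 10 members, and those of Trp53inp1 and Zmat3 were not among them. The windows were searched on both strands for the 10-base p53 element, named here without its degenerate letters. A perfect single element was present in 4 of the 8 members (50.0%) in 9 of 41 other p53 targets of the lists described further on (22%) and in 9.55% of 27025 genes. A pair of elements, at most 13 bases apart with the core bases intact and at most 2 mismatches outside them, was present in Cdkn1a and Bax (2 of 8, 25.0%), in 4 of the 41 other targets (9.76%) and in 2.47% of all genes. The sequences below read 5′ to 3′ on the strand of the gene, with the elements in capitals. Cdkn1a at chr17:29090918-29090957 (plus strand) is shown for its uninterrupted pair with 1 mismatch. Cdkn1a also held a pair with 0 mismatches, 12 bases apart, and 1 of its 2 windows held matches. Bax at chr7:45467080-45467124 (minus strand) is shown for its spaced pair with 2 mismatches. Ccng1 at chr11:40755452-40755481 (minus strand) and Mdm2 at chr10:117710925-117710954 (minus strand) are each shown for a single perfect element.
Cdkn1a: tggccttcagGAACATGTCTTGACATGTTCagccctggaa
Bax: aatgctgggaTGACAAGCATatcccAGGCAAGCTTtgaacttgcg
Ccng1: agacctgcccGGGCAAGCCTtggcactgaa
Mdm2: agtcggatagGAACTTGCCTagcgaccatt
The windows of Phlda3, Sesn2, Gdf15 and Eda2r held no such match, which says only that these letters are not in these windows. A match is a description of the sequence and not a measured binding site.

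Phlda3 was higher in every Postn-/- sample than in every wt sample. It encodes a small protein with a pleckstrin homology domain that competes with the kinase Akt for membrane lipids, and the gene (GRCm38, chr1:135766119-135769136, plus strand) shares no 50-base word with another gene. Phlda3 was at 36.6, 61.0 and 71.6 CPM in Postn-/- replicates 1, 2 and 3, against 25.5, 26.0 and 24.1 CPM in wt replicates 1, 2 and 3, an order kept for all genes below. The wt samples lay close together, while the lowest and highest Postn-/- samples differed by 0.97 on the log2 scale. The means were 56.4 ± 18.0 and 25.2 ± 0.983 CPM (SD, n = 3 each), which is 2.24-fold, or 1.16 on the log2 scale. Without Postn-/- replicate 3, the sample with the highest level, the log2 fold change of Phlda3 was 0.95, and it stayed between 0.95 and 1.40 when each sample was left out in turn.

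**Figure D1:**
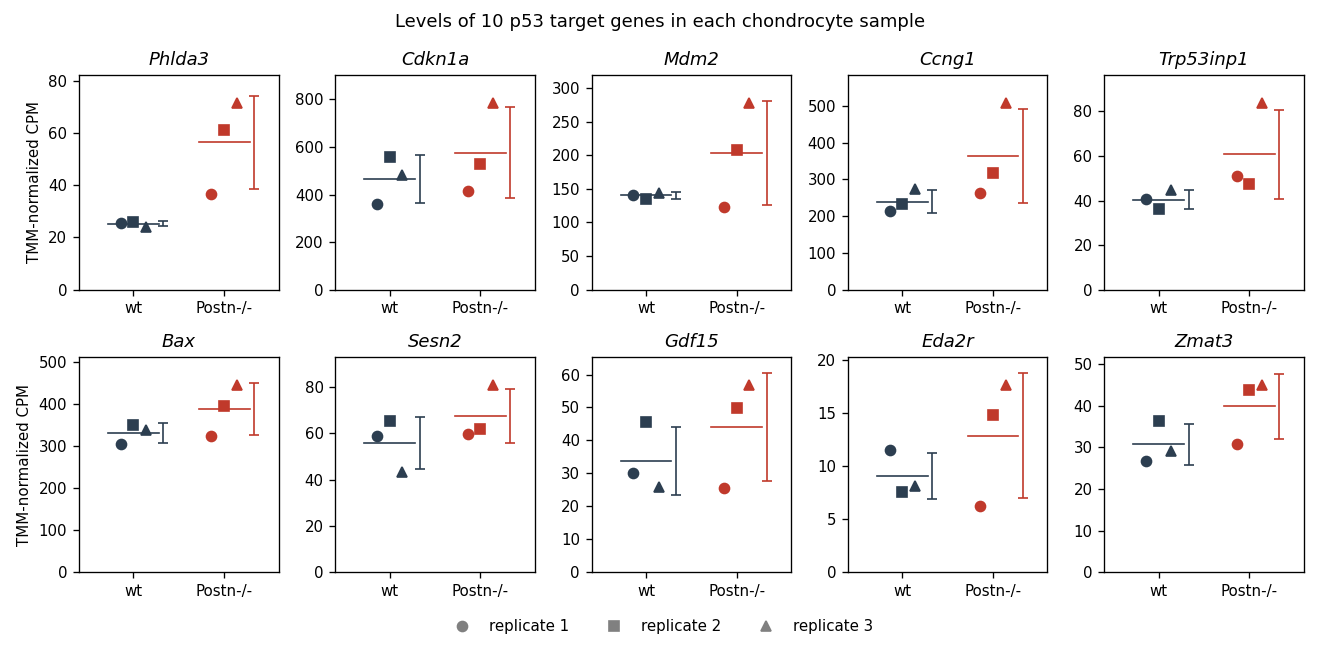
Level of each of the 10 p53 target genes in each sample, as TMM-normalized CPM on linear axes that start at 0. Circles, squares and triangles are replicates 1, 2 and 3, horizontal lines are group means and vertical bars are SDs of 3 samples. Postn-/- replicate 3 is the highest of the 6 samples for every gene shown, and the Postn-/- and wt samples are apart only for Phlda3 and Trp53inp1.

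For the other 9 members, the log2 fold change was above 0 for 9 of 9, between 0.23 and 0.60, where 50.8% of the 14533 genes tested were above 0. The median was 0.38, against 0.0042 over all genes tested, whose 90th percentile was 0.40. Tests were those of edgeR (quasi-likelihood), with Benjamini-Hochberg adjustment over all genes, and a threshold of 0.05. On the adjusted p, 0 of the 9 passed in edgeR (background 0.00688% in each direction), and also 0 in DESeq2 and in limma's voom. On the unadjusted p, edgeR called 2 of the 9 higher (Ccng1 and Trp53inp1, background 3.95%) and 0 lower (background 2.35%). DESeq2 called the same 2 genes (background 3.30%), and voom called these and Sesn2 and Zmat3 (background 5.42%). At least 2 Postn-/- samples were above the highest wt sample for 7 of the 9 (background 23.0%). In 1 of the 9, Trp53inp1, every Postn-/- sample was above every wt sample (background 7.03%).

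The fold changes of the 9 rested in part on Postn-/- replicate 3. That sample was the highest of all 6 for 9 of the 9 members, where 16.2% of all genes tested had their highest level in it. Without it the 9 log2 fold changes were still above 0, but their median was 0.22 and 0 of 9 were called on the unadjusted p (background for either direction 2.95%). Without wt replicate 1 the median was 0.31 and 0 of 9 were called (background 5.45%), and without wt replicate 2 it was 0.51 and only Zmat3 was called, as higher (5.20% of all genes called higher, 8.66% in either direction). Without Postn-/- replicate 1 the median was 0.66 and 7 of 9 were called, each as higher (4.0% of all genes called higher, 5.99% in either direction), all but Cdkn1a and Sesn2.

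**Figure D2:**
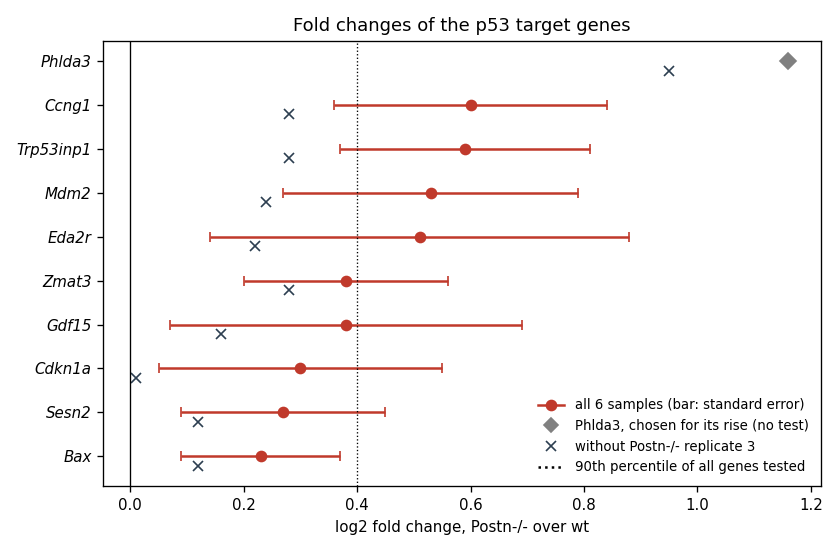
Log2 fold change of each member, Postn-/- over wt, with all 6 samples (circles, with bars of 1 standard error; the diamond is Phlda3, shown without a test) and without Postn-/- replicate 3 (crosses). The dotted line is the 90th percentile of all genes tested, 0.40. All circles and crosses lie above 0, and the cross lies left of its circle for every gene, down to 0.01 for Cdkn1a.

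Mdm2 and Ccng1 are targets of p53 that act back on it. Mdm2 (chr10:117688875-117710758, minus strand), the ligase that marks p53 for degradation, was at 123, 208 and 278 CPM in Postn-/-, against 141, 135 and 144 CPM in wt. The wt samples were nearly level, Postn-/- replicate 1 was below all of them, and the other Postn-/- samples were well above. Its log2 fold change was 0.53 (SE 0.26, unadjusted p = 0.0725, adjusted p = 0.717 in edgeR), with 0.24 without Postn-/- replicate 3 and 0.80 without Postn-/- replicate 1. Ccng1 (chr11:40748552-40755311, minus strand) encodes cyclin G1, which recruits a phosphatase to Mdm2. Its level was 263, 319 and 509 CPM in Postn-/- and 213, 233 and 273 CPM in wt. Only Postn-/- replicate 1 fell within the wt range. Ccng1 had a log2 fold change of 0.60 (SE 0.24, unadjusted p = 0.0355, adjusted p = 0.717 in edgeR), the largest of the 9, and 0.28 without Postn-/- replicate 3. The call of Ccng1 was lost without Postn-/- replicate 3, wt replicate 1 or wt replicate 2, with unadjusted p from 0.0788 to 0.127 in edgeR. Its log2 fold change was 0.52 without wt replicate 1 and 0.58 without wt replicate 2.

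Cdkn1a (chr17:29090976-29100727, plus strand) encodes p21, the inhibitor of cyclin-dependent kinases through which p53 stops the cell cycle. It was at 416, 528 and 786 CPM in Postn-/-, against 358, 559 and 483 CPM in wt. The groups overlapped, and only Postn-/- replicate 3 was above the highest wt sample. The log2 fold change was 0.30 (SE 0.25, unadjusted p = 0.265, adjusted p = 0.770 in edgeR), with 0.01 without Postn-/- replicate 3, 0.15 without wt replicate 1 and 0.50 without Postn-/- replicate 1. Of its 50-base words, 8.49% occur in transcripts of other genes, and an antisense transcript overlaps its exons.

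Among the members that act in cell death, Trp53inp1 (chr4:11156431-11174379, plus strand), a p53-induced nuclear protein that promotes apoptosis and autophagy, was at 50.8, 47.5 and 83.9 CPM in Postn-/-, against 40.6, 36.2 and 44.5 CPM in wt. The groups did not overlap, and the lowest Postn-/- sample was close to the highest wt sample. For Trp53inp1 the log2 fold change was 0.59 (SE 0.22, unadjusted p = 0.0283, adjusted p = 0.717 in edgeR), and 0.28 without Postn-/- replicate 3. Its call was lost without the same samples as that of Ccng1, with unadjusted p from 0.0555 to 0.0858 in edgeR. Its log2 fold change was 0.59 without wt replicate 1 and 0.51 without wt replicate 2. Bax (chr7:45461697-45466898, minus strand), which opens the outer membrane of mitochondria, was at 323, 396 and 444 CPM in Postn-/-, against 304, 350 and 338 CPM in wt. Postn-/- replicate 1 was within the wt range and the other Postn-/- samples were above it. The log2 fold change was 0.23 (SE 0.14, unadjusted p = 0.142, adjusted p = 0.724 in edgeR), the smallest of the 9, and 0.12 without Postn-/- replicate 3. Bax shares exons with Gm45808 on the same strand and 8.51% of its 50-base words, and only unambiguous reads were counted. Eda2r (chrX:97333840-97377216, minus strand), a receptor of the tumour necrosis factor receptor family for ectodysplasin, had the lowest level of the 10 per kilobase of exon. It was at 6.23, 14.8 and 17.6 CPM in Postn-/-, against 11.5, 7.56 and 8.10 CPM in wt. Postn-/- replicate 1 was the lowest of all 6 samples and the other Postn-/- samples were the highest. Eda2r had a log2 fold change of 0.51 (SE 0.37, unadjusted p = 0.201, adjusted p = 0.741 in edgeR), with 0.22 without Postn-/- replicate 3 and 0.84 without Postn-/- replicate 1.

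The remaining members are a stress sensor, a cytokine and an RNA-binding protein. Sesn2 (chr4:132492032-132510501, minus strand), a stress-induced protein that restrains the growth kinase mTOR, was at 59.8, 61.9 and 80.8 CPM in Postn-/-, against 58.9, 65.6 and 43.5 CPM in wt. Only Postn-/- replicate 3 was above the wt range. Sesn2 had a log2 fold change of 0.27 (SE 0.18, unadjusted p = 0.177, adjusted p = 0.734 in edgeR), with 0.12 without either Postn-/- replicate 3 or wt replicate 3 and 0.46 in voom. Gdf15 (chr8:70629393-70632456, minus strand), a secreted cytokine of cell stress, was at 25.6, 49.9 and 56.7 CPM in Postn-/-, against 30.1, 45.5 and 25.7 CPM in wt. Postn-/- replicate 1 was the lowest of the 6 samples, just under wt replicate 3, and the other Postn-/- samples were the highest. Gdf15 had a log2 fold change of 0.38 (SE 0.31, unadjusted p = 0.260, adjusted p = 0.769 in edgeR), with 0.16 without Postn-/- replicate 3, 0.22 without wt replicate 3 and 0.66 without either Postn-/- replicate 1 or wt replicate 2. Zmat3 (chr3:32334792-32366014, minus strand), a zinc finger protein that binds RNA, was at 30.9, 43.9 and 44.9 CPM in Postn-/-, against 26.7, 36.3 and 29.2 CPM in wt. Postn-/- replicate 1 was within the wt range and the other Postn-/- samples were above it. Zmat3 had a log2 fold change of 0.38 (SE 0.18, unadjusted p = 0.0716, adjusted p = 0.717 in edgeR), and 0.28 without Postn-/- replicate 3.

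The members differed among the Postn-/- samples more than among the wt samples. The SD of the log2 level was larger in Postn-/- for 8 of the 9, Sesn2 being the exception, where it was larger in Postn-/- for 42.0% of all genes tested. Its median over the 9 was 0.46 in Postn-/- and 0.23 in wt, and over all genes 0.19 and 0.22. For Mdm2 it was 0.60 against 0.05, and for Phlda3 0.50 against 0.06. Among the Postn-/- samples, 8 of the 9 were lowest in replicate 1 and highest in replicate 3 (all but Trp53inp1), an order that 15.1% of all genes tested had. The difference between these samples, replicate 3 minus replicate 1, was 0.43 to 1.49 on the log2 scale for the 9, while over all genes its median was -0.01 and its 90th percentile 0.49. In the gene-centred log2 levels, the median of the 9 was -0.16, 0.15 and 0.64 in Postn-/- replicates 1, 2 and 3, against -0.26, -0.03 and -0.19 in the wt samples in the same order, so that Postn-/- replicate 1 was within the range of the wt samples.

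The levels of the targeted gene and of cell type markers were read beside this. Postn was at 4.66, 4.27 and 5.67 CPM in Postn-/-, against 10.1, 10.3 and 6.90 CPM in wt, low in both groups but lower in every Postn-/- sample than in every wt sample. Its log2 fold change was -0.91 (SE 0.22, unadjusted p = 0.00362, adjusted p = 0.717 in edgeR), and -1.07 to -0.70 under the alternative settings. The counts of Postn cover the whole gene and do not show which part was deleted. The 10 chondrocyte markers summed to 27843 to 38052 CPM in Postn-/- and 21112 to 31876 CPM in wt, and 2 of them, Col2a1 and Col11a2, were called higher in Postn-/- on the unadjusted p (background 3.95%). Col2a1 had a log2 fold change of 0.68. Without wt replicate 3 it was at 0.65 and its call was lost (unadjusted p = 0.0501 in edgeR). Col11a2 was at 0.52, and its call was lost without either replicate 1 or either replicate 3 (unadjusted p from 0.0900 to 0.119 in edgeR). Its log2 fold change was 0.34 without wt replicate 1 and 0.47 to 0.49 without the others. Postn-/- replicates 1 and 3 were far apart in the p53 targets. In them the chondrocyte markers summed to 38052 and 36678 CPM and the fibroblast list to 1563 and 983. The osteoblast list summed to 1268 and 981 and the blood and osteoclast list to 503 and 460. The endothelial list summed to 5.30 and 7.53 and the muscle list to 6.15 and 8.43. The summed levels of the chondrocyte, fibroblast, osteoblast, blood and osteoclast, endothelial and muscle lists all overlapped between the groups. In the muscle list 1 gene, Acta1, was called lower on the unadjusted p (background 2.35%), with a log2 fold change of -1.30. It was not called without Postn-/- replicate 1, at -1.11, or without wt replicate 2, at -0.74. Thy1, Hbb-bs, Hba-a1, Cdh5 and Ckm of these lists were under 1 CPM in every sample. The part of the marker differences in the levels of the p53 targets was not tested. In these bulk samples, fewer cells of a type and less RNA per cell cannot be told apart.

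Per kilobase of exon, the order of the mean level over the 6 samples was Bax at 414 CPM per kilobase, Cdkn1a at 235, Ccng1 at 85.9, Mdm2 at 33.8, Phlda3 at 26.2, Gdf15 at 21.0, Sesn2 at 17.8, Trp53inp1 at 7.81, Zmat3 at 4.37 and Eda2r at 1.86. The RPKM values deposited by the authors, CPM per kilobase of exon, gave the same order. The sample ranges of neighbours in this order did not overlap between Cdkn1a and Ccng1, Ccng1 and Mdm2, Trp53inp1 and Zmat3, and Zmat3 and Eda2r. The other neighbours overlapped. Phlda3 was at 36.2 ± 11.5 CPM per kilobase in Postn-/-, above Gdf15 at 23.8 ± 8.83, and at 16.2 ± 0.630 in wt, below Gdf15 at 18.2 ± 5.60 (SD, n = 3 each).

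Of p53 itself and its regulators, 18 of 20 listed genes were tested, and their median log2 fold change was -0.08. Trp53, the gene of p53, was at 238, 248 and 232 CPM in Postn-/-, against 238, 279 and 240 CPM in wt. The groups overlapped, with a log2 fold change of -0.07 (SE 0.11, unadjusted p = 0.502, adjusted p = 0.865 in edgeR), which was 0.00 without wt replicate 2. Mdm4, the partner of Mdm2 that masks the activation domain of p53, had a log2 fold change of -0.10 (SE 0.15, adjusted p = 0.861 in edgeR), which ranged from -0.25 without wt replicate 1 to -0.02 without wt replicate 3. On the unadjusted p 1 of the 18 was called higher (background 3.95%) and 0 lower (background 2.35%). It was Ppp1r13l, which encodes the p53 inhibitor iASPP, at 3.09, 2.68 and 3.05 CPM in Postn-/- and 1.27, 2.13 and 1.96 in wt. Its groups did not overlap (background 7.03% with every Postn-/- sample above every wt sample). In the same list, 1 gene was apart in the other direction, lower in Postn-/-. The log2 fold change of Ppp1r13l was 0.72 (SE 0.26, unadjusted p = 0.0247, adjusted p = 0.717 in edgeR). The call of Ppp1r13l was lost without Postn-/- replicate 1, Postn-/- replicate 3 or wt replicate 1, with unadjusted p from 0.0607 to 0.0675 in edgeR. In these fits its log2 fold change was 0.69, 0.69 and 0.52. The checkpoint kinase Chek1 had a log2 fold change of -0.45 (SE 0.29, unadjusted p = 0.160 in edgeR), with -0.12 without wt replicate 1, -0.71 without wt replicate 2 and -0.25 in voom with 2 surrogate variables.

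Other targets of p53, in 5 lists by role, held 50 genes, of which 48 were tested. With edgeR 0 of 48 were called in either direction on the unadjusted p, and 0 on the adjusted p, where 3.95% of all genes tested were called higher and 2.35% lower on the unadjusted p. Their median log2 fold change was 0.11, with 28 above 0 and 20 below. Highest in Postn-/- replicate 3 were 16 of the 48 (background 16.2%). By list, the median log2 fold change was 0.05 for 7 cell cycle genes, 0.23 for 13 apoptosis genes, -0.12 for 7 DNA repair genes, 0.12 for 13 metabolism and stress genes and 0.23 for 8 secreted and surface genes. Btg2, an antiproliferative gene, was at 63.7, 122 and 132 CPM in Postn-/-, against 71.6, 80.3 and 77.9 CPM in wt. As for Mdm2, its Postn-/- replicate 1 was below the wt samples and the others above, and its log2 fold change was 0.47 (SE 0.25, unadjusted p = 0.0952 in edgeR), with 0.27 without Postn-/- replicate 3 and 0.73 without Postn-/- replicate 1. The kinase Plk2 had the same arrangement, with 37.5, 118 and 102 CPM in Postn-/- and 73.3, 53.3 and 71.9 CPM in wt, and a log2 fold change of 0.37 that ranged from 0.07 without Postn-/- replicate 2 to 0.73 without Postn-/- replicate 1. The death genes Bbc3 (Puma) and Bak1 had log2 fold changes of opposite sign, 0.64 (SE 0.31, unadjusted p = 0.0728) and -0.66 (SE 0.30, unadjusted p = 0.0609) in edgeR, and without Postn-/- replicate 1 Bbc3 was at 0.39. The repair genes Pcna, the sliding clamp of DNA polymerase, and Ddb2, which recognises ultraviolet damage, were at -0.41 (SE 0.22) and -0.50 (SE 0.29). Without wt replicate 1, Pcna was at -0.13, and without Postn-/- replicate 2, Ddb2 was at -0.29. In the remaining lists Dcxr, a sugar reductase, was at 0.43 (SE 0.20), Tigar, a regulator of glycolysis, at -0.29 (SE 0.17), Sulf2, a heparan sulphatase, at 0.21 (SE 0.12) and Ctsd, a lysosomal protease, at 0.38 (SE 0.24), with unadjusted p from 0.0611 to 0.155 in edgeR. Without Postn-/- replicate 3, Dcxr was at 0.26 and Ctsd at 0.18, and without wt replicate 2 Ctsd was at 0.21.

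**Figure D3:**
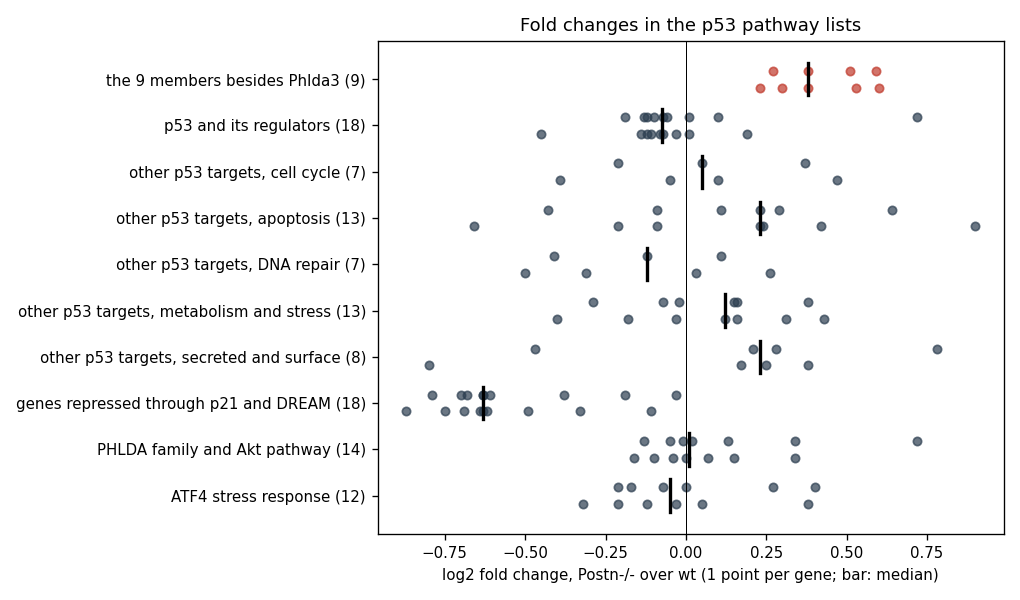
Log2 fold change, Postn-/- over wt, of each tested gene (1 point each, spread vertically only for visibility) in the members besides Phlda3 and in 9 pathway lists, with the number tested in brackets and the median as a bar. The 9 members lie between 0.23 and 0.60, the other p53 target lists spread on both sides of 0, and the 18 cell cycle genes of the DREAM list all lie below 0. Sesn2 and Gdf15 appear among the members and again in the ATF4 list.

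Genes of cell division that p21 is known to lower through the repressor complex DREAM differed widely between samples of the same genotype. Of 18 such genes, all tested, 18 had a log2 fold change below 0, where 50.8% of all genes tested were above 0. The median of the 18 was -0.63. Not all of these signs held when 1 sample was left out, the highest value being 0.27, without Postn-/- replicate 3. Of the 18, 1, Ccnb1, was called lower on the unadjusted p in edgeR (background 2.35%) and 0 on the adjusted p. Called lower on the unadjusted p were 7 of the 18 in DESeq2 (2.70% of all genes), 4 in voom (3.78%), 13 in voom with 2 surrogate variables (5.75%) and 12 in edgeR with no filter (2.21%). The count was 0 in edgeR with upper quartile scaling (2.06%), library totals (2.23%), a robust fit (2.42%) or the filter on all 6 samples (2.29%), where Ccnb1 had unadjusted p from 0.0502 to 0.0598. Their gene-centred log2 levels had medians of -0.43, 0.29 and -0.82 in Postn-/- replicates 1, 2 and 3, against 0.87, 0.00 and 0.09 in wt replicates 1, 2 and 3. The groups overlapped, since Postn-/- replicate 2 was above wt replicates 2 and 3. Lowest in Postn-/- replicate 3 were 16 of the 18 (background 16.7%), and highest in wt replicate 1 were 14 of the 18 (background 24.6%). In these samples Cdkn1a had its highest level, 786 CPM, and its lowest, 358 CPM, respectively. In Postn-/- replicate 1, Cdkn1a was at 416 CPM and the median of the cell division genes was -0.43. A link between the level of Cdkn1a and these genes was not tested. Ccnb1, which encodes the mitotic cyclin B1, was at 13.9, 25.1 and 11.5 CPM in Postn-/-, against 37.5, 21.0 and 26.5 CPM in wt, a log2 fold change of -0.75 (SE 0.32, unadjusted p = 0.0467, adjusted p = 0.717 in edgeR) that was -0.50 without wt replicate 1 and -1.16 without Postn-/- replicate 2. Its call was lost without Postn-/- replicate 1, Postn-/- replicate 3, wt replicate 1 or wt replicate 3, with unadjusted p from 0.0787 to 0.162 in edgeR, and with the replicate number as a block (0.0632). In these fits the log2 fold change of Ccnb1 was -0.80 to -0.50. Top2a, the topoisomerase of dividing cells, was at 98.7, 169 and 63.0 CPM in Postn-/-, against 262, 158 and 151 CPM in wt, a log2 fold change of -0.79 (SE 0.36, unadjusted p = 0.0613 in edgeR) that was -0.48 without wt replicate 1, -0.51 without Postn-/- replicate 3 and -1.24 without Postn-/- replicate 2. Without wt replicate 1 the median of the 18 was -0.29 and 0 were called (background 1.97%), and without Postn-/- replicate 2 it was -1.03 and 15 were called (background 3.82%). The part of these differences in cell division in the levels of the p53 targets was not tested.

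**Figure D4:**
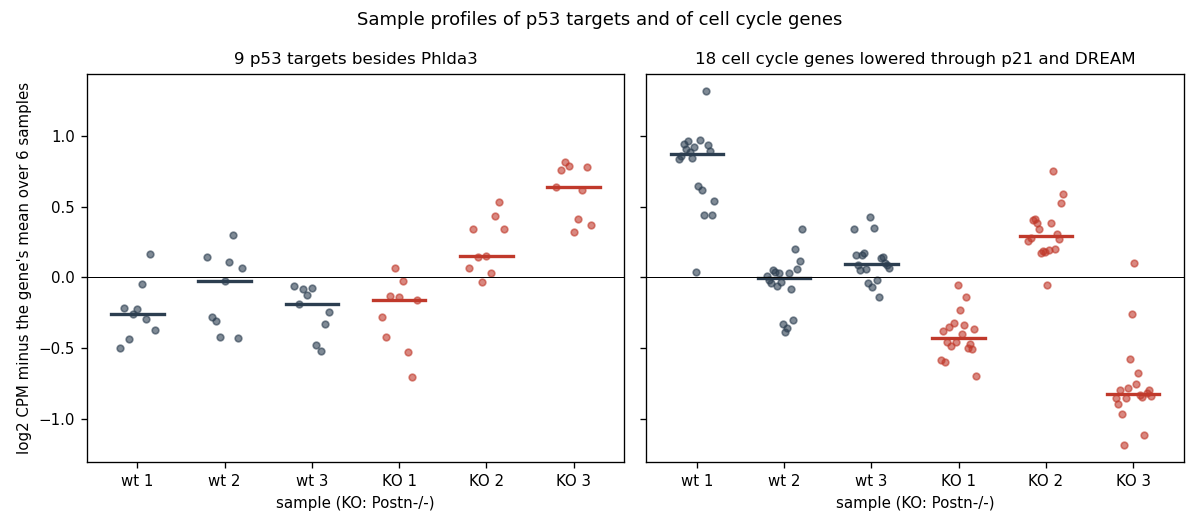
Gene-centred log2 CPM (each gene's level minus its mean over the 6 samples) of the 9 p53 targets besides Phlda3 and of the 18 cell cycle genes that p21 lowers through DREAM, in each sample, with 1 point per gene and bars at the median. The targets are highest in Postn-/- replicate 3, with a median of 0.64, and the cell cycle genes are lowest there, with a median of -0.82, and highest in wt replicate 1, with a median of 0.87.

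Phlda3 was set beside its family and the Akt pathway that it restrains. Of 14 genes listed and tested, the median log2 fold change was 0.01, with 1 called higher on the unadjusted p in edgeR (background 3.95%) and 0 lower (background 2.35%). That gene was Phlda1, which encodes another protein with a pleckstrin homology-like domain. Phlda1 was at 17.4, 16.9 and 17.6 CPM in Postn-/-, against 10.6, 10.8 and 10.1 CPM in wt. The groups did not overlap (background 7.03%), as for Phlda3. Both groups were tight, whereas Phlda3 spread widely in Postn-/-. Phlda1 had a log2 fold change of 0.72 (SE 0.12, unadjusted p = 0.000435, adjusted p = 0.717 in edgeR), higher in 3 of 3 Postn-/- samples. Its adjusted p was 0.00821 in DESeq2's Wald test and 0.00821 to 0.983 over all alternatives. Phlda2 was at 1.53, 2.36 and 2.34 CPM in Postn-/-, against 1.31, 3.62 and 1.92 CPM in wt, a log2 fold change of -0.13 (SE 0.40) that was 0.37 without wt replicate 2. Akt1, the kinase itself, had a log2 fold change of 0.15 (SE 0.18, adjusted p = 0.836 in edgeR), and -0.02 without Postn-/- replicate 2. Foxo1, a transcription factor that Akt keeps out of the nucleus, was at 0.34 (SE 0.16, unadjusted p = 0.0702 in edgeR).

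Sesn2 and Gdf15 are also induced by ATF4, the transcription factor of the integrated stress response, and 12 genes of that response, these 2 included, were read beside them. Their median log2 fold change was -0.05, and -0.09 over the 10 without Sesn2 and Gdf15. Atf4 was at 616, 583 and 569 CPM in Postn-/-, against 612, 729 and 574 CPM in wt, a log2 fold change of -0.12 (SE 0.13, adjusted p = 0.825 in edgeR) that ranged from -0.19 without wt replicate 3 to -0.01 without wt replicate 2. Ddit3, which encodes the death-promoting factor CHOP, was at 482, 440 and 536 CPM in Postn-/-, against 687, 697 and 433 CPM in wt, a log2 fold change of -0.32 (SE 0.19, adjusted p = 0.724 in edgeR) that was -0.51 without wt replicate 3, -0.21 without wt replicate 2 and -0.07 in voom. For both genes the groups overlapped. Atf5 was the 1 gene of the 12 called on the unadjusted p (background 3.95% higher), with 60.9, 58.4 and 55.3 CPM in Postn-/- and 36.7, 57.0 and 39.1 CPM in wt, a log2 fold change of 0.40 (SE 0.17, unadjusted p = 0.0499, adjusted p = 0.717 in edgeR) that was 0.28 without wt replicate 1 and 0.62 without wt replicate 2. The call of Atf5 was lost when any sample but wt replicate 2 was left out, with unadjusted p from 0.0738 to 0.158 in edgeR, in DESeq2 (unadjusted p = 0.0556) and in edgeR with the size factors of DESeq2 (unadjusted p = 0.0526). In these fits its log2 fold change was 0.28 to 0.43.

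The genes whose pattern over the 6 samples was most like that of Phlda3 were found by the root mean square difference of gene-centred log2 levels, over all 14533 genes tested. The closest 5 were ENSMUSG00000100259, which has no symbol in the annotation used, at 0.173, Ifit1, an interferon-induced gene, at 0.200, Angpt2, a vascular growth factor, at 0.207, Gnb3, a G protein subunit, at 0.208 and Ces2g, a carboxylesterase, at 0.223. All of them were low, with no sample above 4.34 CPM. The median of this difference over all genes was 0.662. Among the members Mdm2, at 0.337, and Ccng1, at 0.341, were the closest to Phlda3, in places 99 and 105. Trp53inp1 was in place 249, Zmat3 in place 312, Eda2r in place 474, Gdf15 in place 559, Cdkn1a in place 859, Bax in place 944 and Sesn2, the farthest, at 0.485 in place 1052, the closest 7.24% of genes. These places describe likeness in samples that were also used to choose Phlda3.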

How the data were processed

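Total RNA of high integrity (10 ng per library) was amplified with a SMARTer kit, which does not mark strand, and sequenced as single-end reads of 50 bases. The authors aligned reads with STAR 2.0.4b to the Ensembl mouse assembly and kept reads of a single, unambiguous place for counting with featureCounts 1.4.5 (strand setting not given in the sources used here). For 41388 genes the deposited count is the raw count. CPM and RPKM were deposited beside them by the authors, and RPKM was used only for the order of levels. The labels name mm9, but 99.75% of gene starts lay within 100 kb of their place in GENCODE M21 (GRCm38), which gave symbols for 40254 genes (97.3%) and coordinates.

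The filter asked for more than 1 CPM in 2 or more samples and removed 355 rRNA genes, so that 14533 genes were tested. The package edgeR 4.0.16 (R 4.3.3) fitted, after TMM scaling, Postn-/- against wt with no covariate (quasi-likelihood test, Benjamini-Hochberg adjustment, common biological coefficient of variation 0.208). On simulated data the fit had little bias and few false calls, but its total recovery was under the level first required, smaller effects being missed more often, and that requirement was replaced by ones on bias, false calls, sign and larger effects. SEs are the absolute log2 fold change over the root of the F statistic. Log2 levels used a prior count of 2. Tables were made in Python with pandas. Alternatives were DESeq2 1.42.0, voomWithQualityWeights in limma 3.58.1 without and with 2 surrogate variables (sva 3.50.0), other scalings and filters, a replicate block and leaving out each sample.

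Members and lists were chosen with earlier results of these data known. Named were the 10 members, Postn, Trp53, Mdm4, Phlda1, Phlda2, Akt1, Atf4 and Ddit3, the 2 genes of each list with the smallest p and the 5 genes most like Phlda3. Col2a1, Col11a2, Acta1 and Gm45808 were named after their values were seen.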

Additional observations from a re-analysis of the deposited data

How the results depend on the processing

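The log2 fold change of each of the 9 members kept its sign under all 16 alternative settings of the fit, and their adjusted p stayed above 0.05 in all of them. Phlda3 stayed between 0.95 and 1.40, and the median of the 9 between 0.22 and 0.66, both extremes coming from leaving out a Postn-/- sample. Of the 9, the count called at an unadjusted p of at most 0.05 was 2 and became 4 with voom and 0 to 7 when 1 sample was left out. Of the 108 tested genes of the other lists, 3 were called higher, and this became 6 with voom, 11 with voom and 2 surrogate variables, 6 with no filter and 1 to 7 when 1 sample was left out. The share of all genes called higher was 3.95%, and 5.42%, 7.20%, 3.03% and 2.12% to 5.20% under these settings. In these lists 1 gene was called lower. This became 0 with upper quartile scaling, library totals, a robust fit or the filter on all 6 samples, 8 with DESeq2, 5 with voom, 16 with voom and 2 surrogate variables, 16 with no filter and 0 to 17 when 1 sample was left out. The share of all genes called lower was 2.35%, 2.06% to 2.42% under the settings with 0, and 2.70%, 3.78%, 5.75%, 2.21% and 0.833% to 3.82% under the others. With DESeq2 1 of these genes, Phlda1, was called on the adjusted p, where 10 of all 14533 genes were, against 2 in edgeR. When 1 sample was left out, the sign turned for 42 of the 108 genes of the other lists (38.9%), as for 42.0% of all genes tested and 0 of the 9 members. Among the genes named in the text the sign turned for Trp53 (-0.11 to 0.00, the highest without wt replicate 2), Phlda2 (-0.42 to 0.37, above 0 without Postn-/- replicate 1, at 0.05, and without wt replicate 2) and Akt1 (-0.02 to 0.28, below 0 without Postn-/- replicate 2). With a prior count of 0.5, 3 of the 5 genes most like Phlda3 were the same. The cause of these shifts was not tested. Replicate numbers were shared by the groups, and every sample correlated best with its own number. Same-numbered samples had correlations of 0.0824, 0.155 and 0.143, against -0.13 to 0.0143 between other numbers. The titles give only a number and no pairing, so the main fit took no pairs, and a fit with the replicate number as a block was an alternative. With the replicate block, Phlda3 was at 1.11, 3 of the 9 members were called, and 5 genes of the other lists were called higher and 3 lower, where 4.97% and 3.21% of all genes were. At these depths 3 counts were 0.113 to 0.146 CPM, far below the level of each member.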
